A study of Mus musculus
Rattus norvegicus and Mus musculus and Rattus norvegicus with 95 samples.

Results

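The genes described here are the Fox, Sox, Gata and Tbx transcription factors of a study of mouse-rat allodiploid embryonic stem cells (AdESCs), stem cells that carry a mouse and a rat chromosome set in the same nucleus. Members were chosen by symbol alone: every gene of both expression tables named Fox plus a letter and a number, Sox plus a number, Gata1 to Gata6, or Tbx plus a number, with Sox2 left out. That gave 51 of 13926 mouse-rat homologues, of which 25 were Fox, 11 Sox, 6 Gata and 9 Tbx genes. The single-cell set held 63 differentiated cells in 7 samples and 24 AdESCs in 4 samples. The differentiated cells were fibroblasts of line MR1-1 and neurons and somatic testis cells of line RM1-1, all out of mouse chimaeras, lung and somatic testis cells of line RM2-1 out of rat chimaeras, and embryoid body (EB) cells of lines MR2-1 and RM1-1. The AdESCs were cells of lines MR1-1, MR2-1, RM1-1 and RM2-1. The bulk set held 1 library of each of these 4 AdESC lines, of the rat ESC lines DA25 and DA53, and of the mouse ESC lines F145 and F146, all labelled as stem cells in G0/G1. No label gives an age, a passage or a separate culture for a sample, so each p-value measures the spread between lines or samples only.

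Each of these families is defined by its DNA-binding domain: the forkhead of Fox proteins, the HMG box of Sox proteins, the zinc fingers of Gata proteins and the T-box of Tbx proteins. Many members are switched on in only a few cell types and help to set their fate, such as Gata4, Gata6 and Sox17 in extraembryonic endoderm, Sox11 and Sox4 in progenitors, and Tbx5 in heart and lung mesenchyme. Others belong to the stem cell state itself, such as Tbx3 in mouse ESCs, or are found in most cells, such as Foxm1 in dividing cells and the Foxo factors downstream of insulin signalling.

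Values are FPKM, fragments scaled to transcript length and library size, as the authors deposited them. A single-cell sample was given the mean FPKM of its cells, and differences were tested with limma on log2(FPKM + 1), and the Benjamini-Hochberg adjustment ran over every gene in the fit. A difference on this scale understates the change of low genes. A cell held 3444 to 6246 genes at 1 FPKM and summed to 213045 to 411555 FPKM. A bulk library held 7835 to 8770 such genes and summed to 312695 to 377664 FPKM. Read depth is unknown, and a value of 0 is called "listed at 0" because the tables do not part a failed estimate from a missing transcript. The markers of 3 samples did not all follow their labels, and the RM1-1 neurons held glial markers beside neuronal ones. In the RM1-1 testis somatic cells 1 of 6 Leydig markers reached 1 FPKM, Star at 6.71 FPKM, and 2 of 8 Sertoli markers did, with Clu at 286.8 FPKM and Dhh at 2.03 FPKM. In the RM2-1 testis somatic cells 2 of 6 and 2 of 8 did. Every differentiated sample held 2 to 3 of 8 Sertoli markers, so that count does not mark testis cells. The neurons held Clu at 130 FPKM and Dhh at 2.97 FPKM. Over the differentiated samples Clu ran from 110.8 to 2617 FPKM and Star from 0 to 102.4 FPKM. In the RM1-1 testis somatic cells 5 of 8 glial markers reached 1 FPKM, beside 1 to 3 of 8 in AdESC samples. The astroglial transporter Slc1a3 stood at 154 FPKM in these testis cells. The RM1-1 neurons also held 5 of 8 glial markers, with Slc1a3 at 315.9 FPKM, beside 8 of 9 neuronal markers. In the RM2-1 lung cells 0 of 8 lung epithelial markers reached 1 FPKM, and 4 of 6 Leydig markers did, with the steroidogenic enzyme Cyp11a1 at 1028 FPKM and the gonadal and adrenal factor Nr5a1 at 10.8 FPKM. The same lung cells held 11 of 14 fibroblast markers and 5 of 6 smooth muscle markers. The MR1-1 fibroblasts held the epithelial gene Epcam at 82.7 FPKM and 4 of 7 visceral endoderm markers beside 12 of 14 fibroblast markers. These samples and the neurons are called by their labels below. The differentiated against AdESC comparison is also given without the 3 samples, and the neurons were kept in it.

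Over the differentiated samples, 9 to 20 members had a mean of 1 FPKM or more, with MR1-1 fibroblasts at 20 and RM1-1 testis somatic cells at 9. Over the AdESC samples 10 to 14 members did. The median cell held 9 members at 1 FPKM or more among differentiated cells and 7 among AdESCs. No differentiated sample lacked a Sox member at this level, whereas the RM1-1 neurons and RM1-1 testis somatic cells held 0 Gata and 0 Tbx members. The RM1-1 EB cells held 2 Gata and 0 Tbx members. The member with the highest mean was Tbx3 in every AdESC sample. Among differentiated samples it was Sox11 in the fibroblasts, the neurons, both testis somatic samples and the RM1-1 EB cells, Foxn3 in the lung cells and Gata6 in the MR2-1 EB cells. At the other end, 13 members stayed under 1 FPKM in every bulk line and every single-cell sample mean, and 2 of these, Foxb2 and Sox14, were listed at 0 in every cell and line.

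**Figure D1:**
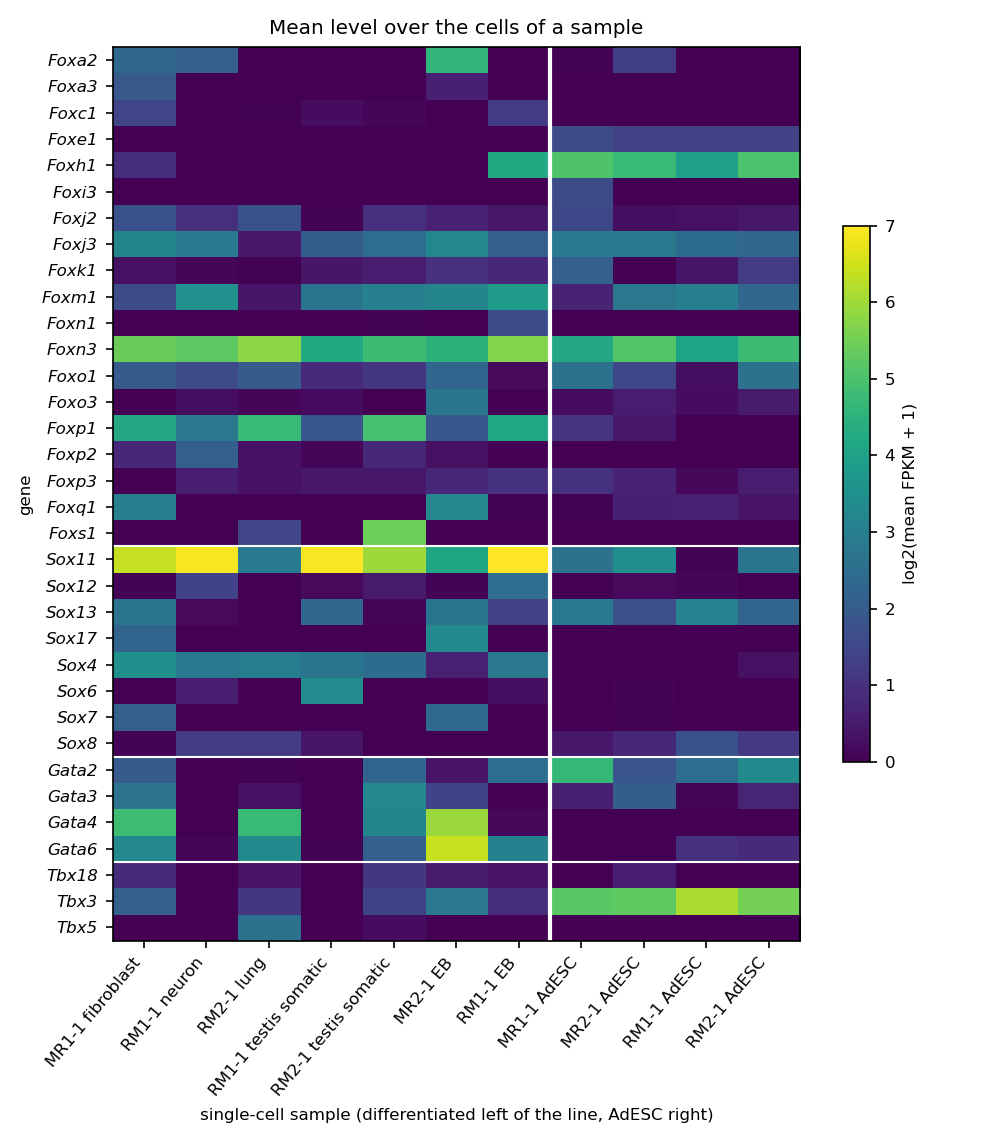
Mean level, as log2(mean FPKM + 1), of 34 members that reached a mean of 1 FPKM in at least 1 of the 11 single-cell samples, with 7 differentiated samples left of the white line and 4 AdESC samples right of it. Tbx3 and Foxh1 are bright in all 4 AdESC samples, while Gata4 is bright in 4 of the 7 differentiated samples and Gata6 in 5 of them.

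The comparison of differentiated samples with AdESC samples asks which of these factors change when AdESCs leave the stem cell state. Tbx3 and Foxh1 fell and Sox11, Sox4 and Foxp1 rose. The filter of a mean of 1 FPKM over the 11 samples left 19 of the 51 members to test, and 32 were too low. Of the 19, 3 were called higher and 2 lower, which is 26.3%, beside 15.9% of all 8421 genes tested (7.37% higher and 8.57% lower). A member that is high in differentiated samples alone can pass such a filter through them, so this count describes the 19 only. The median log2 difference was 0.55 over the 19 members and 0.02 over all genes.

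Tbx3, a T-box repressor known from the self-renewal network of mouse ESCs (homologue 4371, mouse chromosome 5, 119670669 to 119684724 on GRCm38), was the member with the largest fall. It averaged 3.44 FPKM in MR1-1 fibroblasts, 1.16 in RM2-1 lung cells, 1.68 in RM2-1 testis somatic cells, 5.92 in MR2-1 EB cells and 0.88 in RM1-1 EB cells. It was listed at 0 in RM1-1 neurons and RM1-1 testis somatic cells. The AdESC samples averaged 36.3 FPKM in MR1-1, 37.7 in MR2-1, 69.6 in RM1-1 and 45.6 in RM2-1. No differentiated sample reached the lowest AdESC sample, and the log2 difference was -4.35 ± 0.56 (SE; limma, adjusted p = 8.15e-05). Cell by cell, 19 of 63 differentiated cells and 24 of 24 AdESCs held 1 FPKM or more, and the lowest AdESC stood at 3.94 FPKM. Differentiated cells reached 28.95 FPKM at most, in the MR2-1 EB sample, so single cells of both classes overlapped.

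Foxh1, the forkhead partner of Smad proteins in Nodal and activin signalling (homologue 2914, mouse chromosome 15, 76668225 to 76669948), was listed at 0 in every cell of 5 differentiated samples. It averaged 0.89 FPKM in the fibroblasts and 18.0 FPKM in RM1-1 EB cells. The 4 AdESC samples averaged 32.6 FPKM in MR1-1, 25.5 in MR2-1, 14.5 in RM1-1 and 31.5 in RM2-1. The log2 difference was -3.95 ± 0.74 (adjusted p = 0.00218). The RM1-1 EB mean came from 1 cell at 90.2 FPKM, with the other 4 listed at 0, and it lay above the RM1-1 AdESC sample. In all, 3 of 63 differentiated cells and 21 of 24 AdESCs reached 1 FPKM.

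Sox11, a Sox factor of neural and mesenchymal progenitors (homologue 37733, mouse chromosome 12, 27334264 to 27342574), had the largest rise. It averaged 82.1 FPKM in fibroblasts, 120.4 in neurons, 6.25 in lung cells, 122.4 and 61.9 in RM1-1 and RM2-1 testis somatic cells, and 16.6 and 126.9 in MR2-1 and RM1-1 EB cells. The AdESC samples averaged 5.18 FPKM in MR1-1, 9.85 in MR2-1, 0.023 in RM1-1 and 5.44 in RM2-1. Lung cells were the only differentiated sample inside the AdESC range. The log2 difference was 3.55 ± 0.80 (adjusted p = 0.00773), and it was the 1 call among the 5 that was lost when low genes were also tested (adjusted p = 0.0513). Within samples Sox11 was uneven: fibroblast cells ran from 0.15 to 356.5 FPKM, and 10 of 24 AdESCs held 1 FPKM or more, up to 31.2 FPKM.

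Sox4, the near relative of Sox11 (homologue 2338, mouse chromosome 13, 28948919 to 28953713), moved the same way at lower levels. Its means were 10.5 FPKM in fibroblasts, 6.08 in neurons, 6.63 in lung cells, 5.54 and 4.58 in RM1-1 and RM2-1 testis somatic cells, and 0.57 and 6.00 in MR2-1 and RM1-1 EB cells. In AdESCs Sox4 was listed at 0 in 3 samples and averaged 0.26 FPKM in RM2-1, where 1 cell held 1.53 FPKM. The groups did not overlap, and the log2 difference was 2.48 ± 0.53 (adjusted p = 0.00552). AdESCs stood near 0, so the size depends on the pseudocount: over all alternatives the difference reached 5.08 for Sox4 and 5.22 for Foxp1.

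Foxp1, a forkhead repressor found in heart, lung, lymphocytes and neurons (homologue 13092, mouse chromosome 6, 98925338 to 99522721), averaged 17.8 FPKM in fibroblasts, 5.96 in neurons, 25.2 in lung cells, 2.64 and 30.1 in RM1-1 and RM2-1 testis somatic cells, and 2.72 and 17.5 in MR2-1 and RM1-1 EB cells. In AdESCs it averaged 1.07 FPKM in MR1-1 and 0.37 in MR2-1 and was listed at 0 in RM1-1 and RM2-1. The log2 difference was 3.15 ± 0.65 (adjusted p = 0.00435), with no overlap between the groups. All 20 RM2-1 testis somatic cells held Foxp1, from 7.16 to 89.4 FPKM, while 2 of 24 AdESCs reached 1 FPKM. These 5 calls were the same when the MR1-1 fibroblasts, RM2-1 lung cells and RM1-1 testis somatic cells were left out together, an alternative chosen after seeing the data, and with the cell line as a block. Under that block Gata4 was called as well (3.34, adjusted p = 0.0121).

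**Figure D2:**
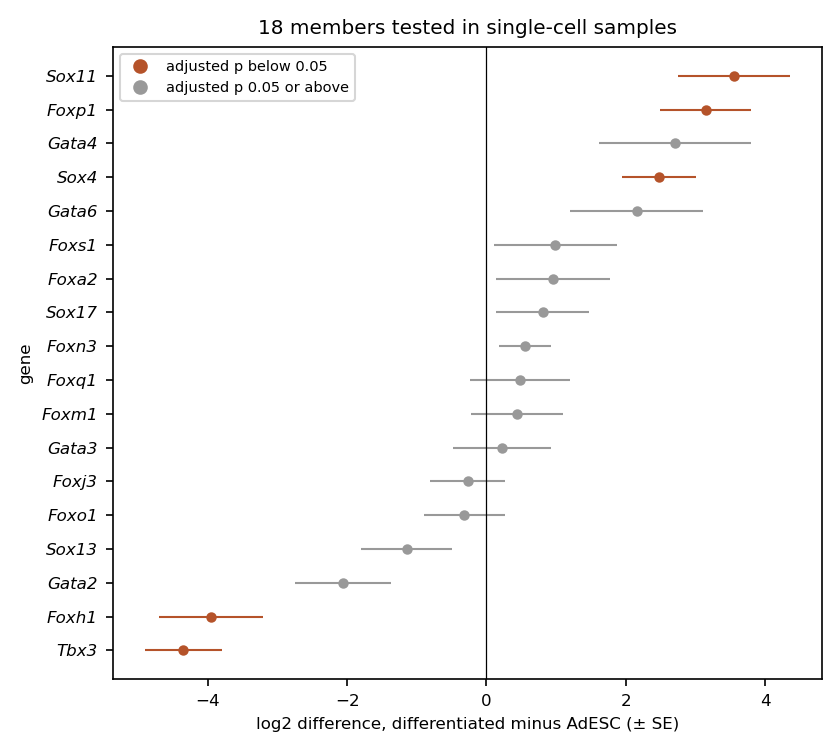
Log2 difference, differentiated minus AdESC samples, with its SE, of 18 members tested in the single-cell samples. The 5 members with an adjusted p below 0.05 are orange: Sox11 (3.55), Foxp1 (3.15) and Sox4 (2.48) right of 0, and Foxh1 (-3.95) and Tbx3 (-4.35) left of it.

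Of the other 14 tested members none passed the threshold over the 7 differentiated samples. Gata4 and Gata6 had log2 differences of 2.70 ± 1.09 (adjusted p = 0.103) and 2.16 ± 0.95 (adjusted p = 0.133), with some differentiated samples high and others at or near 0. Gata2, a factor of blood and trophoblast, averaged 0 to 4.64 FPKM over the differentiated samples, and 24.3, 2.61, 4.62 and 9.14 FPKM in AdESCs of lines MR1-1, MR2-1, RM1-1, RM2-1 in that order. Its log2 difference was -2.06 ± 0.69 (adjusted p = 0.0545), and the groups overlapped. Sox13 (-1.15 ± 0.65, adjusted p = 0.239) did not pass either. Foxn3, a forkhead repressor, was present in every sample, at 18.1 to 55.1 FPKM in differentiated samples and 15.7 to 33.96 FPKM in AdESC samples (0.55 ± 0.37, adjusted p = 0.327). Foxm1, which drives genes of mitosis, ran from 0.35 to 13.4 FPKM in differentiated samples and from 0.62 to 6.95 FPKM in AdESC samples (0.44 ± 0.66, adjusted p = 0.679). Foxj3 ran from 0.36 to 8.68 FPKM in differentiated samples and from 3.95 to 6.43 FPKM in AdESC samples (-0.27 ± 0.54, adjusted p = 0.762). Too low to test, Foxe1, a thyroid factor, was listed at 0 in all 63 differentiated cells and averaged 1.59 to 2.07 FPKM in the 4 AdESC samples, where 11 of 24 cells reached 1 FPKM.

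**Figure D3:**
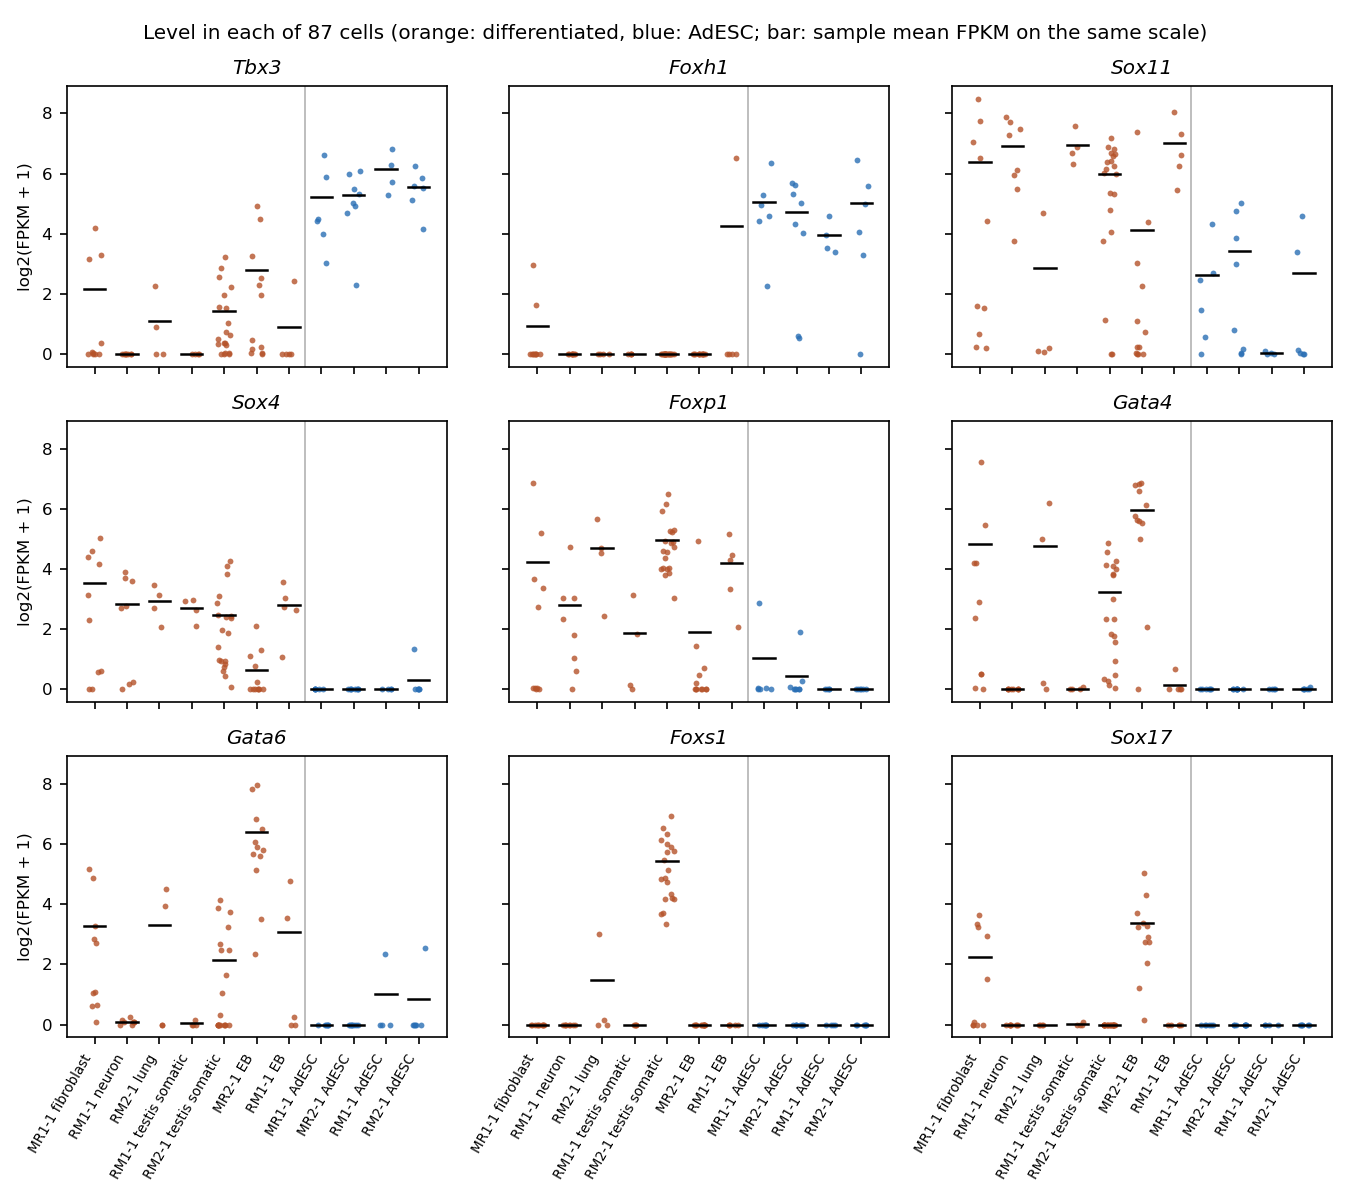
Level of 9 members in each of the 87 cells, as log2(FPKM + 1), with differentiated samples (orange) left of the grey line and AdESC samples (blue) right of it, and bars at the sample mean. All 24 AdESCs are above 0 for Tbx3 and at or near 0 for Gata4, and Foxs1 is high in all 20 RM2-1 testis somatic cells.

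The Gata factors split the differentiated samples. Gata4 averaged 27.4 FPKM in fibroblasts, 25.9 in lung cells, 8.34 in RM2-1 testis somatic cells and 60.7 in MR2-1 EB cells, against 0.12 in RM1-1 EB cells, 0.012 in RM1-1 testis somatic cells and a listed 0 in neurons. In AdESCs the highest of 24 cells held 0.059 FPKM. So 33 of 63 differentiated cells and 0 of 24 AdESCs reached 1 FPKM, and 0 of 24 allows a share of up to 12.5% of such cells. Gata6 averaged 83.6 FPKM in MR2-1 EB cells, 7.41 in RM1-1 EB cells, 8.67 in fibroblasts, 8.94 in lung cells and 3.46 in RM2-1 testis somatic cells, and 1.01 FPKM or less in neurons, RM1-1 testis somatic cells and all AdESC samples. The 3 differentiated samples of line RM1-1 held little Gata4, and the 4 from other lines held it, but line, tissue and host animal cannot be told apart here. In the RM2-1 lung cells Gata4 stood at 72.2 FPKM in the highest cell and was listed at 0 in the lowest, and Gata4 and Gata6 each reached 1 FPKM in 2 of 4 cells (50%, exact binomial 95% interval 6.76 to 93.2%). Gata3 averaged 8.54 FPKM in RM2-1 testis somatic cells and 5.40 FPKM in fibroblasts, carried by 6 of 20 and 2 of 10 cells.

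Among differentiated cells, 17 of 63 held Gata4 or Gata6 at 10 FPKM or more without Sox11 at that level, 29 held Sox11 alone, 13 held both and 4 held neither. All 8 neurons and all 4 RM1-1 testis somatic cells were of the Sox11 kind, and 9 of 12 MR2-1 EB cells were of the Gata kind. RM2-1 testis somatic cells were divided, with 9 cells of the Sox11 kind, 8 with both, 1 with Gata alone and 2 with neither. Of the 24 AdESCs, 5 held Sox11 at 10 FPKM and 0 held either Gata factor. The level of 10 FPKM was chosen after the values were seen.

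Embryoid bodies are aggregates in which stem cells differentiate without a host, and the EB samples were set against the AdESC samples to see which members change there. Of the 19 members tested, 1 was called higher and 1 lower, 10.5%, beside 5.55% of the 8421 genes tested (2.45% higher and 3.1% lower). Gata6 (homologue 68449) averaged 83.6 and 7.41 FPKM in MR2-1 and RM1-1 EB cells, and 0, 0, 1.01 and 0.81 FPKM in AdESCs of lines MR1-1, MR2-1, RM1-1, RM2-1 in that order. Its log2 difference was 4.27 ± 0.98 (limma, adjusted p = 0.0397). The Gata6 mean of RM1-1 EB cells came from 2 of 5 cells, at 26.2 and 10.7 FPKM, with the rest at 0.21 FPKM or less. Its RM1-1 and RM2-1 AdESC means came from 1 cell each, at 4.05 and 4.85 FPKM. Tbx3 fell to 5.92 and 0.88 FPKM in the EB samples, against 36.3 to 69.6 FPKM in the AdESC samples (-3.69 ± 0.70, adjusted p = 0.0186). With the cell line as a block neither call was kept, with adjusted p = 0.141 for Gata6 and 0.123 for Tbx3, and neither was kept with no filter on low values, with adjusted p = 0.143 and 0.0638. With the mean of log2 values over cells the adjusted p of Gata6 was 0.0568. Without RM1-1 EB cells, which leaves 1 EB sample, the Tbx3 difference was -2.76. Without any 1 of the 4 AdESC samples 0 members were called. Without either testis somatic sample, which share the fit, 1 was called. Without MR2-1 EB cells the Gata6 difference was 2.61 (adjusted p = 0.166).

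The EB samples differed in the members they held. Sox7 is named here after its values were seen. In MR2-1 EB cells Gata6 stood at 1 FPKM or more in 12 of 12 cells, Gata4 and Sox17 in 11, Foxa2 and Foxq1 in 9 and Sox7 in 8. Sox17 and Sox7 are related Sox factors of endoderm and vessels, Foxa2 is a forkhead factor of endoderm and floor plate, and Foxq1 is a forkhead factor of epithelia. Their means in MR2-1 EB cells were 9.29 FPKM for Sox17, 4.33 for Sox7, 23.4 for Foxa2 and 8.37 for Foxq1. In RM1-1 EB cells Sox17, Sox7 and Foxa2 were listed at 0 in all 5 cells, which allows a share of up to 60%, and the 5 cells held Sox11 at 42.7 to 263.8 FPKM, Foxp1 at 3.17 to 35.04 FPKM and Sox4 at 1.10 to 10.8 FPKM. The T-box gene T, a mesoderm factor outside the naming rule, averaged 65.2 FPKM in RM1-1 EB cells and was listed at 0 in MR2-1 EB cells. Of 7 visceral endoderm markers, 4 reached 1 FPKM in MR2-1 EB cells and 2 in RM1-1 EB cells, with the endocytic adaptor Dab2 at 68.7 and 8.90 FPKM. With 1 sample of each line the difference between the EB samples has no replicate check.

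Sox17, Sox7, Foxa2 and Foxq1 were also found together in 1 other sample, the MR1-1 fibroblasts, at means of 3.77, 3.39, 4.03 and 7.34 FPKM. There the cells differed from each other. The fibroblast cell with the most Sox11 (356.5 FPKM) held Foxp1 at 114.8 FPKM and Epcam at 309.9 FPKM, with Sox17, Sox7 and Foxa2 listed at 0. The cell with the most Gata4 (184.6 FPKM) held Gata6 at 34.8, Sox17 at 6.70 and Foxq1 at 37.4 FPKM, with the endocytic receptor gene Cubn at 93.3 FPKM and Col3a1, a collagen of fibroblasts, at 0.15 FPKM. The cell with the second highest Sox11 (215.5 FPKM) held Col3a1 at 216.8 FPKM, Sox4 at 23.1 FPKM and Gata4 at 0.039 FPKM. In the MR2-1 EB sample 1 cell of 12 held Sox11 at 166.3 FPKM, Foxp1 at 29.7 FPKM and the collagen Col1a1 at 470.5 FPKM, with Gata4 listed at 0. The same cell held Gata6 at 10.3 FPKM and Sox17 at 3.13 FPKM. The part of such mixed cells in the differences between samples was not tested.

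**Figure D4:**
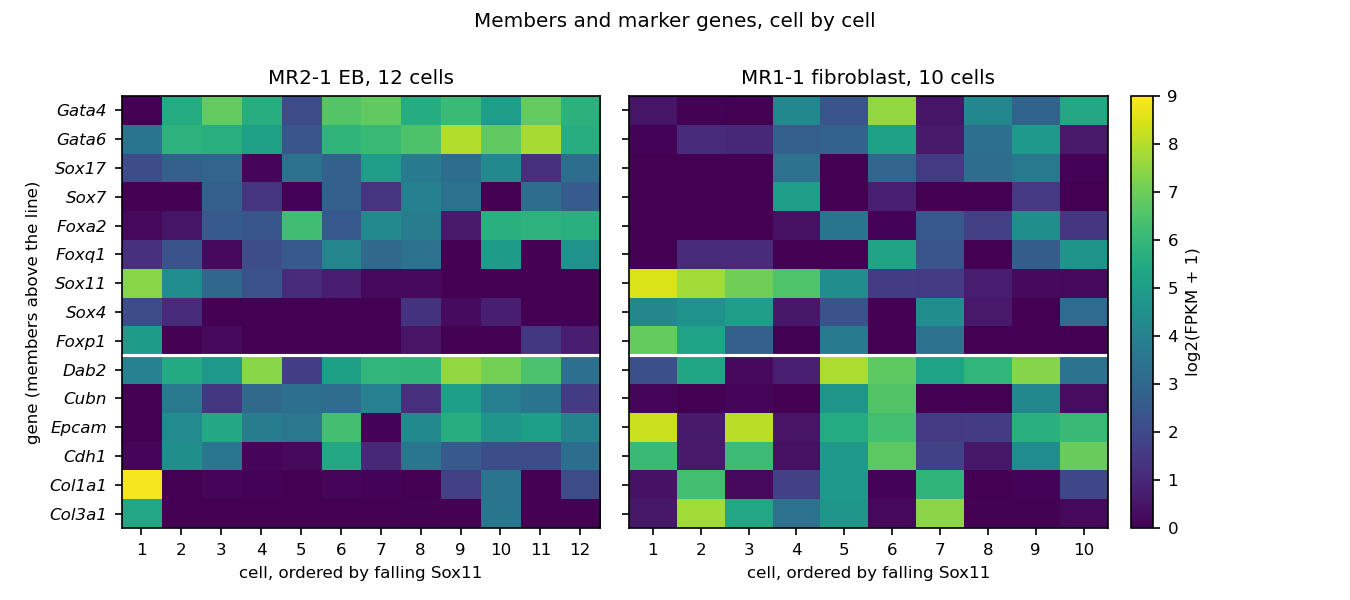
Level of 9 members (above the white line) and 6 marker genes (below it) as log2(FPKM + 1) in each of 12 MR2-1 EB cells (left) and 10 MR1-1 fibroblast cells (right), ordered by falling Sox11. In the left panel Gata6 is above 0 in every cell and Gata4 in every cell but the first, and in the right panel both are low in the 3 cells with the most Sox11.

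Somatic testis cells were set against AdESCs next. Of 19 members tested 2 were called higher and 2 lower, 21.1%, beside 11.1% of the 8421 genes tested (5.77% higher and 5.37% lower). Sox11 averaged 122.4 and 61.9 FPKM in RM1-1 and RM2-1 testis somatic cells, and 0.023 to 9.85 FPKM in AdESC samples (4.26 ± 1.02, adjusted p = 0.0289). Sox4 averaged 5.54 and 4.58 FPKM there, and 0 to 0.26 FPKM in AdESC samples (2.51 ± 0.65, adjusted p = 0.0395). Tbx3 fell to 0 and 1.68 FPKM in RM1-1 and RM2-1 testis somatic cells, against 36.3 to 69.6 FPKM in AdESC samples (-4.83 ± 0.70, adjusted p = 0.00412), and Foxh1 was listed at 0 in all 24 testis somatic cells, against sample means of 14.5 to 32.6 FPKM in AdESCs (-4.69 ± 1.03, adjusted p = 0.0214). With the cell line as a block 0 of the 4 calls was kept, with adjusted p = 0.0502 for Tbx3, 0.0822 for Foxh1, 0.136 for Sox11 and 0.202 for Sox4. With no filter on low values Tbx3 alone was kept, with adjusted p = 0.0926 for Foxh1, 0.128 for Sox11 and 0.102 for Sox4. Without MR1-1 or RM2-1 AdESCs 1 member was called, and without MR2-1 AdESCs 2 were. The RM1-1 testis somatic cells had markers that did not all follow their label. Without them the difference was 3.78 for Sox11, 2.40 for Sox4 and -4.69 for Foxh1. Without RM2-1 testis somatic cells it was 4.75, 2.63 and -4.69 in that order. Each of these fits leaves 1 testis sample, so only the size is given, and the calls rest on both samples.

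Other members parted the testis samples from each other. Foxs1, a forkhead factor of pericytes and the neural crest (homologue 20871, mouse chromosome 2, 152931898 to 152933208), averaged 42.6 FPKM in RM2-1 testis somatic cells, where all 20 cells held it at 9.21 to 122.0 FPKM. It was listed at 0 in all 4 RM1-1 testis somatic cells and in all 24 AdESCs, and averaged 1.77 FPKM in lung cells, the only other sample in which any cell reached 1 FPKM. In the same RM2-1 testis somatic cells 6 of 6 smooth muscle markers reached 1 FPKM, with the actin-binding gene Tagln at 3939 FPKM, and the summed level of that list was 5156 FPKM there, 3113 FPKM in lung cells, 79.4 to 937 FPKM in the other differentiated samples and 3.26 to 8.13 FPKM in AdESC samples. RM1-1 testis somatic cells held Sox6, a Sox factor of cartilage and oligodendrocyte precursors, at 9.44 FPKM, against 0 in RM2-1 testis somatic cells and 0.49 FPKM in neurons. The glial markers of the RM1-1 testis somatic cells summed to 174 FPKM, beside 380 FPKM in neurons, 1.39 FPKM in RM2-1 testis somatic cells and 4.32 to 15.6 FPKM in AdESC samples.

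Between EB and testis somatic samples 0 of 19 members passed the threshold with limma, beside 0.0713% of all genes (6 of 8421, with 0.0475% higher and 0.0238% lower). With no filter on low values 1 member was called, and with the filter 1 member had an unadjusted p below 0.05. The member with that unadjusted p was Gata6, at 83.6 and 7.41 FPKM in MR2-1 and RM1-1 EB cells, and at 0.030 and 3.46 FPKM in RM1-1 and RM2-1 testis somatic cells (3.64 ± 1.13, p = 0.0103, adjusted p = 0.371). Other large differences were those of Foxs1 (-2.72 ± 1.35), Foxa2 (2.29 ± 1.24) and Foxh1 (2.13 ± 1.18), each carried by 1 sample of its kind. Both kinds were also compared with the same AdESC samples.

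Lung cells held Tbx5, at a mean of 5.15 FPKM from 1 cell at 20.6 FPKM, and Tbx5 stayed under 2 FPKM in every other cell. The 4 lung cells have no replicate sample, and their marker genes were those given above.

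Genes known downstream or beside these factors were read from lists, which were chosen with earlier results of these data known. A listed gene that is high in differentiated samples alone can pass the filter through them. Dab2 was listed at 0 in every AdESC sample, and Col4a1, Tnnt2 and Col11a1 stayed under 1 FPKM in each. The counts below therefore describe the tested genes only. Of 13 endoderm genes in the tables, 7 were tested between differentiated and AdESC samples and 3 rose, beside 7.37% of the 8421 genes tested: the matrix genes Sparc (3.48 ± 0.53, adjusted p = 0.000442) and Col4a1 (4.89 ± 0.99, adjusted p = 0.00377), and Dab2 (3.63 ± 1.09, adjusted p = 0.0352). Sparc stood at 229 to 3412 FPKM in differentiated samples, against 64.02 to 87.96 FPKM in AdESC samples, with 333 FPKM in the neurons, where Gata4 was listed at 0. Cubn, Ttr and Lama1 did not pass the test. In the same comparison 4 of 14 fibroblast markers and 3 of 5 smooth muscle markers tested also rose, and their part in the endoderm count was not tested. Of 4 heart genes tested, the troponin gene Tnnt2 rose (2.58 ± 0.61, adjusted p = 0.00969), and of 1 cartilage gene tested the collagen Col11a1 rose (1.84 ± 0.55, adjusted p = 0.0337). None of 9 Foxo targets, 7 Foxm1 targets, 6 cofactors and 1 other T-box gene passed, with medians of 0.53, -1.45, -0.04 and 0.64 on the log2 scale beside 0.02 over all genes.

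The bulk libraries ask how AdESC lines stand to rat and mouse ESC lines. In bulk RNA, fewer cells of a type and less RNA per cell cannot be told apart, and how the authors joined mouse and rat values of a gene in AdESC libraries is not stated, so AdESC levels depend on that step. Of the 51 members 21 passed the filter, and 16 to 23 were at 1 FPKM or more in a line. A member that is high in 1 group of lines alone can pass the filter through that group. Foxq1, under 1 FPKM in every AdESC and mouse line, passed it through the rat lines. The bulk counts below therefore describe the 21 only. Tbx3 had the highest value of any member in 7 of the 8 lines and Gata2 in RM2-1.

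Rat and mouse ESC lines differed in 7 of 21 members, 6 higher and 1 lower in rat, 33.3% beside 26.6% of 8794 genes tested (14.1% higher and 12.6% lower). Foxe1 (homologue 3291, mouse chromosome 4, 46343609 to 46346412) stood at 24.01 and 25.99 FPKM in DA25 and DA53, and at 0 and 0.097 FPKM in F145 and F146 (4.63 ± 0.47, adjusted p = 0.000107). Foxi3, a forkhead factor of ectodermal placodes and teeth (homologue 52949, mouse chromosome 6, 70956531 to 70961066), stood at 9.57 and 9.03 FPKM in DA25 and DA53, and at 0.19 and 0.25 FPKM in F145 and F146 (3.08 ± 0.71, adjusted p = 0.0107). Sox12, a relative of Sox4 and Sox11, stood at 12.2 and 12.3 FPKM in the rat lines, and at 2.1 and 2.28 FPKM in the mouse lines (2.06 ± 0.50, adjusted p = 0.0138). These 3 members were each close within a species. Without DA25 1 of the 7 calls was kept, that of Foxe1 (adjusted p = 0.00186), Foxq1 fell under the filter on low values, and the others missed the threshold, with adjusted p = 0.0609 for Foxi3, 0.0545 for Foxo1, 0.0745 for Sox12, 0.142 for Sox4 and 0.302 for Gata6. Without DA53 or F145 3 of the 7 were kept.

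Foxo1, a forkhead factor held in check by insulin signalling, stood at 20.6 and 19.1 FPKM in DA25 and DA53, and at 5.37 and 4.16 FPKM in F145 and F146 (1.86 ± 0.39, adjusted p = 0.00682). Foxq1 stood at 4.14 and 2.13 FPKM in the rat lines, and at 0.033 and 0.26 FPKM in the mouse lines (1.82 ± 0.39, adjusted p = 0.00725). Gata6 stood at 11.0 and 1.86 FPKM in DA25 and DA53, and at 0.44 and 0.73 FPKM in F145 and F146 (1.89 ± 0.59, adjusted p = 0.0382), and without DA25 its difference was 0.86 (adjusted p = 0.302). In DA25 Gata4 (3.10 FPKM) and Sox17 (3.34 FPKM) were also higher than in DA53 (0.54 and 0.30 FPKM).

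Sox4 was the 1 member lower in rat lines, at 0.34 and 0.51 FPKM in DA25 and DA53, and at 10.0 and 2.36 FPKM in F145 and F146 (-2.10 ± 0.63, adjusted p = 0.0338), and it was not called without F145 (-1.24, adjusted p = 0.201). Fibroblast markers differed between the species too, and 10 of 13 tested were lower in rat lines and 0 higher. They reached 1 FPKM for 3 and 2 of 14 in DA25 and DA53, for 14 and 13 of 14 in F145 and F146, and for 9 to 13 of 14 in AdESC lines. Their summed level was 2652 FPKM in F145, beside 334.6 to 683.3 FPKM in the other 7 bulk lines, where the matrix gene Fn1 alone gave 323.6 and 673.9 FPKM in DA25 and DA53. F145 stood highest in that sum, and it held Foxs1 at 2.65 FPKM, which was under 0.5 FPKM in every other line. The part of fibroblast markers in the Sox4 value was not tested.

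Against mouse lines, AdESC lines had 2 of 21 members called, both higher, 9.52% beside 3.89% of 8794 genes (2.71% higher and 1.18% lower). Foxe1 stood at 4.66 FPKM in MR1-1, 13.7 in MR2-1, 8.21 in RM1-1 and 4.66 in RM2-1, and at 0 and 0.097 FPKM in F145 and F146 (2.95 ± 0.40, adjusted p = 0.00493). Foxi3 stood at 3.92, 2.79, 15.1 and 18.2 FPKM in the 4 AdESC lines (MR1-1, MR2-1, RM1-1, RM2-1), and at 0.19 and 0.25 FPKM in the mouse lines (2.84 ± 0.62, adjusted p = 0.0385). In both genes every AdESC line was above both mouse lines. In the separately normalised single-cell table, 1 of 24 AdESCs held Foxi3, and 11 of 24 reached 1 FPKM of Foxe1. The Foxi3 call was lost in 7 of 13 alternatives (adjusted p up to 0.127), which were no filter and leaving out F145, F146, DA25, DA53, RM1-1 or RM2-1, while Foxe1 was called in all 13 alternatives tried.

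Against rat lines, AdESC lines had 3 of 21 members called, all lower, 14.3% beside 9.7% of 8794 genes (5.79% higher and 3.91% lower). They were Foxe1 (-1.68 ± 0.40, adjusted p = 0.0283), Sox12, at 1.14, 3.34, 4.50 and 1.00 FPKM in the 4 AdESC lines (MR1-1, MR2-1, RM1-1, RM2-1), against 12.2 and 12.3 FPKM in DA25 and DA53 (-2.06 ± 0.44, adjusted p = 0.0160), and Foxq1, at 0.38 to 0.92 FPKM in AdESC lines against 4.14 and 2.13 FPKM in DA25 and DA53 (-1.37 ± 0.34, adjusted p = 0.0311). The AdESC lines thus lay between the rat and mouse lines for Foxe1 and Foxq1, while for Sox12 the AdESC and mouse values overlapped. Foxo1, at 7.19 to 18.1 FPKM in AdESC lines, and Gata6, at 0.728 to 1.70 FPKM, also lay between. The lowest Gata6 value was close to that of F146 (0.726 FPKM). Neither gene was called between AdESC lines and rat or mouse lines. Scaling the libraries to the same upper quartile moved the median log2 difference of all genes by 0.31 in this comparison and by -0.27 between rat and mouse lines. With that scaling 82.1% of calls over all genes were higher in AdESC than in rat lines, in place of 59.7%, and 37.1% were higher in rat than in mouse lines, in place of 52.9%. Sox12 (adjusted p = 0.0274) was then the 1 member called against rat, with Foxe1 at 0.0520 and Foxq1 at 0.0531. Without DA25 0 members were called against rat lines, without RM1-1 or RM2-1 1 was, and without DA53 the 1 member called was not among these 3.

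**Figure D5:**
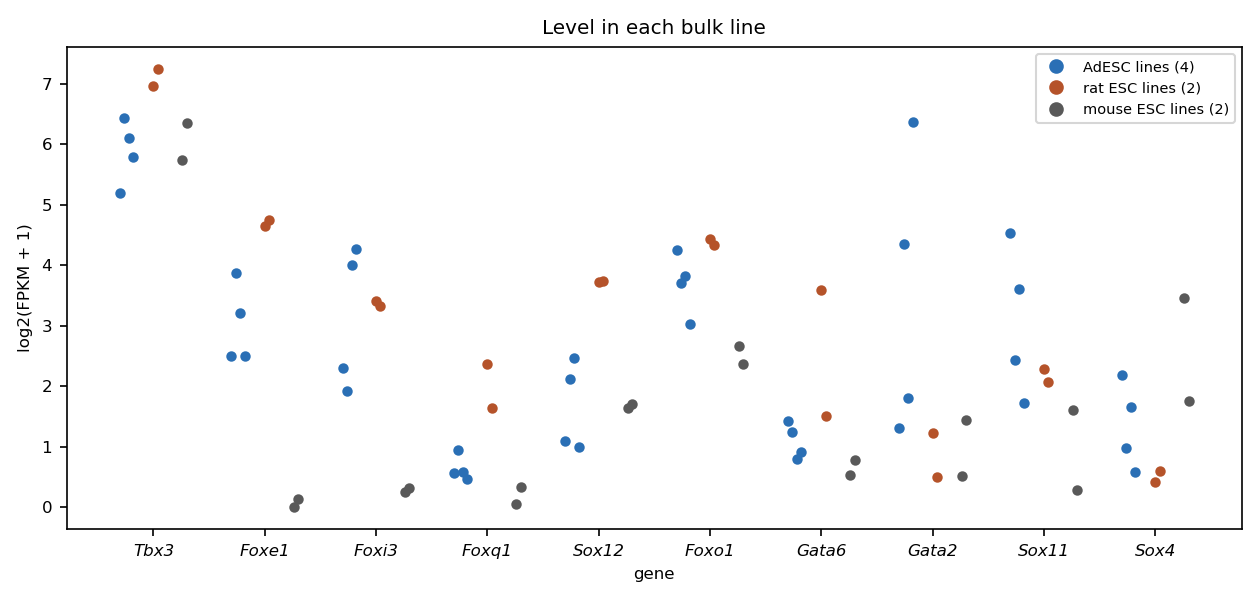
Level of 10 members in each bulk line, as log2(FPKM + 1): 4 AdESC lines in blue, 2 rat ESC lines in orange and 2 mouse ESC lines in grey, left to right within a gene. Foxe1 runs from rat (24.01 and 25.99 FPKM) through AdESC to mouse (0 and 0.097 FPKM), and Gata2 spreads widely among the AdESC lines (1.47 to 81.3 FPKM).

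Tbx3 stood at 35.5, 85.4, 67.9 and 54.4 FPKM in the 4 AdESC lines (MR1-1, MR2-1, RM1-1, RM2-1), at 123.4 and 150.9 FPKM in DA25 and DA53, and at 52.2 and 81.2 FPKM in F145 and F146. AdESC lines were below both rat lines without passing the test (-1.22 ± 0.35, adjusted p = 0.0527), and they overlapped the mouse lines (-0.17 ± 0.35, adjusted p = 0.838). Gata2 stood at 1.47, 19.5, 2.48 and 81.3 FPKM in the 4 AdESC lines (MR1-1, MR2-1, RM1-1, RM2-1), at 1.34 and 0.41 FPKM in DA25 and DA53, and at 0.44 and 1.72 FPKM in F145 and F146. The AdESC lines MR2-1 and RM2-1 stood above every other line, and neither difference passed the test (adjusted p = 0.193 against rat and 0.277 against mouse). In single AdESCs the order was another, with MR1-1 highest at 24.3 FPKM and RM2-1 at 9.14 FPKM, in a table normalised apart from the bulk one. Sox11 stood at 22.3, 4.42, 11.2 and 2.28 FPKM in the 4 AdESC lines (MR1-1, MR2-1, RM1-1, RM2-1), at 3.88 and 3.22 FPKM in DA25 and DA53, and at 2.06 and 0.22 FPKM in F145 and F146, and neither difference passed the test (adjusted p = 0.452 against rat and 0.127 against mouse). Single AdESCs again had another order for Sox11, with MR2-1 highest at 9.85 FPKM and RM1-1 lowest at 0.023 FPKM.

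Forkhead factors of wide expression were present in every bulk line. Over all 8 lines Foxj3 ran from 15.5 to 24.04 FPKM, Foxm1 from 11.1 to 28.1, Foxo3 from 7.03 to 19.5, Foxo4 from 3.83 to 8.81, Foxn3 from 2.83 to 7.58 and Foxj2 from 2.26 to 8.15. Foxh1, the Nodal pathway factor that fell in differentiated cells, ran from 5.52 to 26.6 FPKM in AdESC lines, against 11.1 and 19.3 FPKM in rat lines and 14.7 and 16.9 FPKM in mouse lines. None of these 7 members passed the test in a bulk comparison. Sox13 ran from 6.25 to 12.9 FPKM in AdESC lines, against 11.5 and 14.5 FPKM in rat lines and 7.86 and 3.66 FPKM in mouse lines, and Sox8, a factor of glia and testis, from 0.34 to 6.96 FPKM in AdESC lines, against 0.23 and 0.20 FPKM in rat lines and 1.27 and 0.049 FPKM in mouse lines.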

How the data were processed

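The authors' deposited tables give 1 FPKM value per homologue and library. The unit is not in the headers; per the submitters' processing notes FastQC 0.10.1, TopHat2 2.0.10 and Cufflinks 2.1.1 were used with mm10 and rn5, and the values have the size of FPKM. Groups follow the labels, and cells of a sample were averaged, since cells are not replicates. The test was limma (3.58.1; R 4.3.3), with its trended prior, applied to log2(FPKM + 1). Genes needed 1 FPKM on average over the samples (8421 single-cell, 8794 bulk passed), with Benjamini-Hochberg adjustment over these and a threshold of 0.05, and the code was tested on simulated data. The 2 tables were normalised separately and never tested against each other. Single-cell columns carry no cell number. No columns were identical. Derived and AdESC samples of a line come from the same line, so the line served as a pairing block in an alternative; their deviations from the group means correlated at -0.009 to 0.033. Shares of cells use exact binomial (Clopper-Pearson) 95% intervals or, at 0 cells, 3 of the cells counted, and cover counting error only. Mouse positions came from GENCODE by symbol (51 of 51 matched); the build mm10 is GRCm38. Members and gene lists were chosen with earlier results of these data known. Named genes were all called members, the 10 tested members with the largest difference in each comparison, the 3 highest members of each single-cell sample and every member at 5 FPKM or more in a group or sample. The values of 1 member are not reported here. Alternatives were another pseudocount, no filter, upper-quartile scaling, no trend, the mean of log2 over cells, the line block, RM and MR lines apart, and each sample left out.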

Additional observations from a re-analysis of the deposited data

Results flagged for a closer look

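Dixon's test for 1 value standing apart from its group was run on log2(FPKM + 1) of the 11 called members in 33 groups of 4 or 7 samples, and 6 values were past the 95% limit, where chance gives about 1 in 20. Foxh1 in RM1-1 EB cells (18.0 FPKM) stood above the other 6 differentiated samples, through 1 of 5 cells. Sox4 in MR2-1 EB cells (0.57 FPKM) stood below the other differentiated samples, and Sox4 in RM2-1 AdESCs (0.26 FPKM) above 3 AdESC samples listed at 0. Foxe1 (2.07 FPKM) and Foxi3 (2.02 FPKM) in MR1-1 AdESCs stood above the other AdESC samples, Foxi3 through 1 cell at 12.1 FPKM. For Sox4 and Foxi3 in AdESCs the other 3 samples are listed at 0, so any value above 0 passes the limit, and these 2 carry no weight. Foxp1 in the bulk line RM1-1 (3.43 FPKM) stood above the other 3 AdESC lines, at 0.89 to 1.13 FPKM.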

How the results depend on the processing

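Of 344 recomputed values of called members, 257 kept their call, 87 lost it and 0 changed direction; the cause of a lost call was not tested. Differentiated against AdESC samples gave 5 or 6 called members under every alternative tried. EB against AdESC gave 2 calls, and 2 others in their place with no filter, 0 with a pseudocount of 0.1, 0 with the line as a pairing block and 0 to 6 with 1 sample left out. Testis somatic against AdESC gave 4, 2 without the filter on low values, 0 with the block and 1 to 4 with 1 sample left out; the block moved no other comparison's count by over 1.5 times. EB against testis somatic gave 0, 1 without the filter and 0 to 3 with 1 sample left out, where Gata3 (not called) ran from -2.55 to 0.71, positive without RM2-1 testis cells, and Gata4 (not called) from -1.46 without MR2-1 EB cells to 4.33, with -0.17 without RM1-1 testis cells. Bulk AdESC against mouse gave 2, 1 without the filter and 1 to 2 with 1 line left out. Against rat it gave 3, 1 with upper-quartile scaling and 0 to 4 with 1 line left out. Rat against mouse gave 7, and 1 to 8 with 1 line left out: 1 without DA25, 3 without DA53 and 4 without F145. With no filter it gave 8, of which 3 were among the 7, and Foxi3 (adjusted p = 0.0576), Gata6 (0.102), Sox12 (0.052) and Sox4 (0.101) were not called. Upper-quartile scaling lost Gata6 (0.0565). Where this left 1 line in a group, that line was assumed to vary like the others. Of the 3 calls against rat, Foxe1 (limma, adjusted p = 0.093) and Sox12 (0.0725) were lost with no filter. Foxq1 was lost with a pseudocount of 0.1 (0.0663) and with RM and MR lines apart (0.0606). Of the 4 testis calls Tbx3 alone was kept with no filter, and Foxh1 (0.0926), Sox11 (0.128) and Sox4 (0.102) were lost. The median number of members per differentiated cell was 9 at 1 FPKM, 14 above 0 FPKM and 6 at 5 FPKM (7, 13 and 5 in AdESCs). The share of all genes called in each refit is not given beside these counts, so a changed count is not a result about the members alone. Unknown depth and 2 lines or samples in most groups limit these data.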

Other observations

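Some forkhead members had unlike levels in the 2 tables, which were normalised separately, so the values are set side by side without a comparison. Foxn3 averaged 15.7 to 55.1 FPKM over the 11 single-cell samples and 2.83 to 7.58 FPKM over the 8 bulk lines. Foxo3 and Foxo4 stood at 7.03 to 19.5 and 3.83 to 8.81 FPKM in the bulk lines. In single AdESCs 3 of 24 cells reached 1 FPKM of Foxo3 and 1 of 24 that of Foxo4. Foxi3 stood at 2.79 to 18.2 FPKM in the bulk AdESC lines, with 15.1 FPKM in RM1-1 and 18.2 FPKM in RM2-1. It was listed at 0 in every single AdESC but 1, a cell of line MR1-1. Among differentiated cells Foxo3 was highest in the MR2-1 EB sample, at a mean of 5.77 FPKM.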
